A study of Polypedilum vanderplanki with 33 samples.

Results

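Recovery of dried larvae of the sleeping chironomid Polypedilum vanderplanki was followed by RNA-seq from the middle (6 and 12 h) to the late phase (24 and 48 h) after rewetting. Late recovery comprised the libraries taken at 24 and 48 h of rehydration, and middle recovery those taken at 6 and 12 h, 1 library each and all of batch 1, so that 4 of the 33 libraries of the series formed the comparison. They were picked by their labelled time and batch, with earlier results of these data known. Undried larvae (0 h of dehydration, 2 libraries of batch 1) and dry larvae (0 h of rehydration, 1 library of batch 1) are given beside them as levels. Per the labels, all were whole larvae of highly inbred lines reared on milk agar. Their polyA RNA was sequenced from libraries made with an Illumina TruSeq kit. The larvae of the 4 compared libraries had been dried and then rewetted, dry larvae had been dried only, and undried larvae neither. No genotype, age or sex of the larvae was stated in the labels used here. A pair of times is not a pair of replicates: the spread within late or middle recovery includes the change between its times, and nothing in the labels ties a library to separate cultures or animals.

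The sleeping chironomid is known for anhydrobiosis, a state in which its larvae lose almost all body water, stop metabolism and resume it on contact with water. During drying the larvae replace water with trehalose and accumulate protective proteins such as late embryogenesis abundant proteins, heat shock proteins and antioxidant enzymes. After rewetting, trehalose is broken down, damage to DNA and proteins is repaired, and the larvae return to feeding and growth. The deposited tables pair no gene ID with a name and 0 of the IDs matched the reference table, so genes are given by scaffold position and by a few IDs, functions are not assigned, and the labelled source could not be set against marker genes. In a whole larva, fewer cells of a type and less RNA per cell cannot be told apart.

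The 4 libraries held between 21364570 and 26269069 counts. The 24 h library stood apart from the others by gene length. Across 8899 genes with a mean of at least 5 CPM (counts scaled to the effective library size), the log2 difference between 24 h and 12 h had a Spearman correlation of -0.49 with the exonic length of the gene model, and that between 48 h and 24 h one of 0.37. Between 48 h and 12 h the correlation was -0.02, between 12 h and 6 h it was -0.19, and for replicate pairs of drying larvae in the same batch its size was at most 0.2. Gene models with over 4000 exonic bases had a median log2 difference of -0.79 at 24 h against 12 h, and those of up to 1000 bases one of 0.52. All genes of a library share its preparation, so these correlations describe libraries. With 1 library at 24 h, a property of that time and a property of that library cannot be told apart, and the main results are given with and without it.

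**Figure D1:**
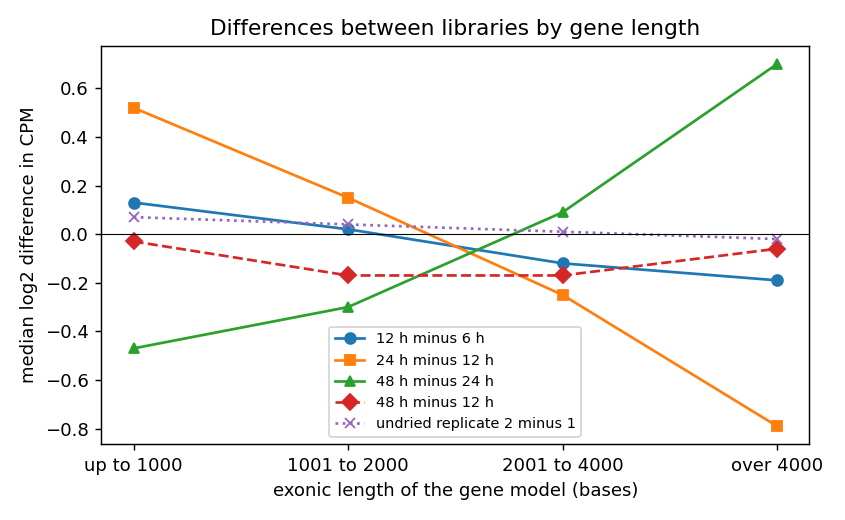
The median log2 difference in CPM (vertical axis) between pairs of libraries is shown for 4 classes of exonic gene length in bases (horizontal axis), over 8899 genes. The 24 h minus 12 h line runs from 0.52 in the shortest class to -0.79 in the longest, the 48 h minus 24 h line runs the other way from -0.47 to 0.70, and the 48 h minus 12 h line and the undried replicate pair stay within 0.17 of 0.

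In late recovery, a set of genes whose median had been far below the undried level came back to it, and a set whose median had been above it since the dry state fell below it. Of 17189 tested genes, 354 rose (2.06%) and 323 fell (1.88%) in late against middle recovery, at a Benjamini-Hochberg adjusted p under 0.05 in the edgeR quasi-likelihood test over all tested genes. The p-values rest on the spread among the 22 libraries of the fit, mostly between replicates of drying times, and that spread may be technical. The 354 genes had a median log2 level of -0.32 at 24 h and 0.07 at 48 h relative to undried larvae, against -2.44 at 6 h and -1.90 at 12 h. The 323 genes had a median of -0.63 at 24 h and -0.52 at 48 h relative to undried larvae, against 1.32 at 6 h and 0.61 at 12 h. Together these genes changed the make-up of the RNA: the 354 took 12.8% of all counts at 24 h and 18.7% at 48 h, against 3.86% at 6 h and 6.05% at 12 h. The 323 took 2.02% at 24 h and 1.60% at 48 h, against 8.60% at 6 h and 5.06% at 12 h. In the 2 undried libraries the 354 took 14.2% and 12.5%, and the 323 took 2.94% and 2.95%. The genes were called from the same 4 libraries, so their shift in share partly restates the calls.

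With 48 h alone as late recovery, 431 genes rose (2.51%) and 523 fell (3.04%), and 292 of the 354 and 162 of the 323 were called again in the same direction. The 431 genes had a median log2 level of 0.17 at 48 h relative to undried larvae, against -2.26 at 6 h and -1.84 at 12 h, and the 523 genes had -0.90 at 48 h, against 1.28 and 0.72. With each library's trend by gene length removed, a choice made after seeing the data, 268 rose and 227 fell. In all 3 fits the same 200 genes rose and the same 104 fell. The calls leaned on the 6 h library: without it, with 12 h alone as middle recovery, 1 gene rose and 2 fell, and 1487 genes had an unadjusted p under 0.05. Without the 12 h library 513 genes rose and 555 fell, and without the 48 h library 348 rose and 968 fell. In such fits the lone library is assumed to vary like the other groups. Without scaling factors 268 genes rose and 694 fell, so that 27.9% of calls were rises, against 52.3% with TMM scaling.

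**Figure D2:**
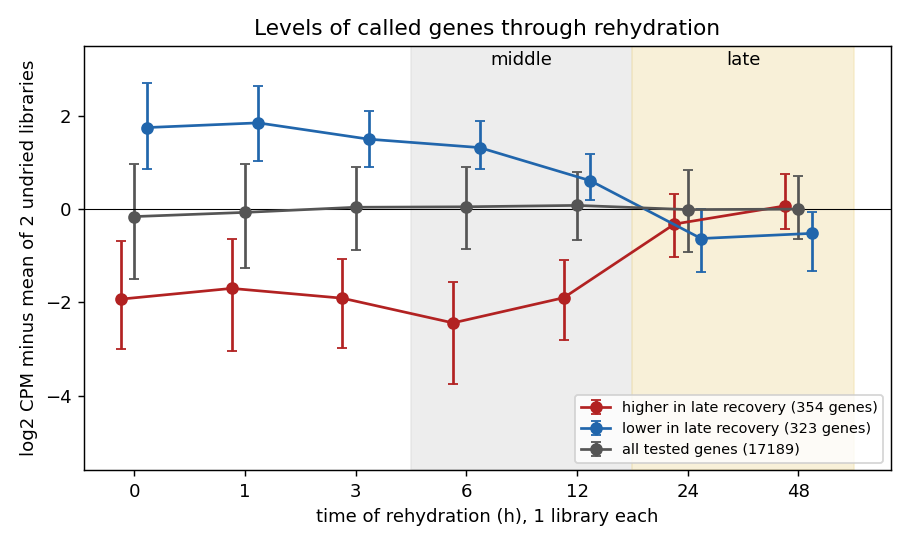
Medians of log2 CPM minus the mean of the 2 undried libraries (vertical axis) are plotted at each time of rehydration in hours (horizontal axis, 1 library each), with bars from the lower to the upper quartile over genes. The 354 genes higher in late recovery lie between -2.44 and -1.70 until 12 h and at -0.32 and 0.07 at 24 and 48 h, the 323 lower genes go below 0 after 12 h, and the median of all 17189 tested genes stays between -0.16 and 0.08.

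Of the 354 genes that rose, 340 changed at least 2-fold and 88 at least 8-fold, with a median log2 fold change of 2.12. Of the 323 that fell, 314 changed at least 2-fold and 53 at least 8-fold, with a median size of 1.62. For all 677 called genes both late libraries lay on the same side of both middle libraries; over all tested genes 22.7% had both late libraries above and 23.4% had both below.

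Among called genes with a mean of at least 5 CPM in the higher pair, the 2 with the largest rise had no count in middle recovery. PvG003247 (scaffold 1230, 204402 to 207751, plus strand, 6 merged exon blocks) had 440 counts (14.4 CPM) at 24 h and 2350 (87.9 CPM) at 48 h, against 0 counts at 6 and 12 h. It was at least 1060-fold higher in late recovery, against a floor of 3 counts over both middle libraries (edgeR quasi-likelihood test, Benjamini-Hochberg adjusted p = 0.0302). Undried larvae had 98.4 and 21.0 CPM and dry larvae 0.577 CPM, so this gene was at or below 1.46 CPM up to 12 h of rewetting and within the range of the undried libraries at 48 h. Its model overlaps another, and its call was lost without the 6 h or the 12 h library.

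PvG011565, on the plus strand of scaffold 21624 (403 to 1085, 3 merged exon blocks), followed the same course. It had 149 counts (4.88 CPM) at 24 h and 452 (16.9 CPM) at 48 h, against 0 counts at 6 and 12 h, at least 228-fold higher against the same floor (edgeR quasi-likelihood test, Benjamini-Hochberg adjusted p = 0.0486). Undried larvae had 66.4 and 8.33 CPM, and its call was lost when any of the 4 libraries was left out.

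Under the same limit of 5 CPM, the 2 genes with the largest fall had been above their undried level in dry larvae; below that limit called falls reached 8.83 on the log2 scale. PvG016447, on the minus strand of scaffold 298 (32671 to 33536, 1 exon), had 1.87 CPM at 24 h and 0.0374 CPM at 48 h, against 37.1 CPM at 6 h and 8.21 CPM at 12 h. The log2 fold change was -4.54 ± 1.13 (SE), with an adjusted p of 0.05, just under the threshold before rounding, in the edgeR quasi-likelihood test. Dry larvae had 222 CPM and undried larvae 1.36 and 2.99 CPM, so its level declined at each sampled time after 0 h of rehydration. PvG026890, on the plus strand of scaffold 5981 (966 to 2570, 1 exon), had 0.327 CPM at 24 h and 0 counts at 48 h, against 8.08 CPM at 6 h and 2.05 CPM at 12 h (log2 fold change -4.87 ± 1.13 SE, edgeR quasi-likelihood test, Benjamini-Hochberg adjusted p = 0.029). It was highest at 3 h, at 9.17 CPM, against 4.98 CPM in dry and 1.39 and 0.370 CPM in undried larvae. Both falling calls were lost without the 6 h or the 48 h library. The log2 fold change of PvG016447 was -9.06 without the 24 h library and -3.08 without 6 h, and that of PvG026890 was -10.0 and -3.56, so 1 library decided the size of each. With 0 or 1 count left in late recovery, the values without 24 h depend on the prior count.

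Some genes that rose lay side by side. Among tested genes in scaffold order, 56 of the 354 rising genes (15.8%) stood in 26 runs of at least 2, of which 4 runs held 3 genes and none more. Of the 323 falling genes 54 (16.7%) stood in 27 runs of 2. Many of these neighbours overlap, and 42.0% of all tested models overlap another. The use of strand in counting is not given in the sources used, so reads of overlapping models on opposite strands cannot be told apart. The share of other tested genes in such runs was not computed, so no clustering is read from these shares.

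The run on scaffold 16902 (1 to 2657) went far above the undried level. Its 3 models, all overlapping, summed to 411 CPM at 24 h and 3301 CPM at 48 h, against 34.3 CPM at 6 h and 34.1 CPM at 12 h. Undried larvae had 371 and 121 CPM and dry larvae 32.3 CPM, so the level at 48 h was 13.4 times the undried mean. Within the run the log2 fold changes lay between 5.72 and 5.84. The level at 3 h, 248 CPM, was above those at 6 and 12 h, so the sum was not steady before middle recovery. The models share bases and may share reads.

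The other 4 of the 5 rising runs described had sums between 0.739 and 0.971 times the undried mean at their highest time of the 4. On scaffold 2859 (106287 to 120664, 14.4 kb) 3 models that do not overlap summed to 6919 CPM at 24 h and 9825 CPM at 48 h, against 1631 CPM at 6 h and 2667 CPM at 12 h, with 10017 and 10225 CPM in undried larvae. The most abundant, at 108497 to 109877, had 4610 and 6390 CPM at 24 and 48 h, against 1490 and 1800 CPM at 6 and 12 h. Its neighbour at 119277 to 120664 had 2300 and 3400 CPM, against 133 and 862 CPM, and so was already higher at 12 h than at 6 h. The remaining model, at 106287 to 107364, had 6.19 and 31.9 CPM, against 4.35 and 4.57 CPM. Undried larvae had 16.9 and 15.9 CPM of it, so it rose mainly after 24 h and ended above the undried level.

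The run on scaffold 648 (291770 to 295557, 3 models) summed to 404 CPM at 24 h and 453 CPM at 48 h, against 49.7 CPM at 6 h and 129 CPM at 12 h, with 581 and 645 CPM in undried larvae. On scaffold 126 (55073 to 56729, 3 overlapping models) the sum was 433 CPM at 24 h and 256 CPM at 48 h, against 119 and 127 CPM, with 546 and 511 CPM in undried larvae. This was the only one of the 5 rising runs whose sum was lower at 48 h than at 24 h. Its models at 55073 to 56729 and 55482 to 56710, on opposite strands, had 203 and 205 CPM at 24 h. At 48 h they had 121 and 123 CPM. They share bases and may share reads, so the sum may hold the same reads more than once. On scaffold 145 (110938 to 115695, 2 models) it was 9.53 and 21.1 CPM, against 0.768 and 1.87 CPM, with 37.0 and 19.0 CPM in undried larvae.

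Among the 5 falling runs described, those on scaffolds 331 and 251 were the most abundant. The 2 models of scaffold 331 (95386 to 98047), which do not overlap, summed to 462 CPM at 24 h and 74.8 CPM at 48 h, against 4270 CPM at 6 h and 1713 CPM at 12 h. Dry larvae had 15702 CPM and undried larvae 2423 and 2535 CPM. The 2 models of scaffold 251 (26488 to 27688) summed to 286 CPM at 24 h and 64.1 CPM at 48 h, against 3267 CPM at 6 h and 1184 CPM at 12 h, with 12380 CPM in dry and 783 and 1321 CPM in undried larvae. Both sums thus passed below the undried level, at 12 h on scaffold 331 and by 24 h on scaffold 251, and were lower still at 48 h. They were 11.2 and 12.7 times higher in middle than in late recovery by the means of the summed CPM. The sum on scaffold 331 was mostly its model at 95386 to 96072, with 4240 CPM at 6 h. The model at 96970 to 98047 had 8.89 CPM at 12 h, 1.9 CPM at 24 h and 0.374 CPM at 48 h. Its undried levels were 1.25 and 0.956 CPM, so it was below them only at 48 h.

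The other 3 of these 5 runs were less abundant. On scaffold 86 (32002 to 72094, 2 overlapping models) the sum was 14.2 CPM at 24 h and 27.2 CPM at 48 h, against 141 CPM at 6 h and 69.6 CPM at 12 h, with 845 CPM in dry and 170 and 113 CPM in undried larvae. On scaffold 79 (45300 to 50083, 2 overlapping models) it was 26.7 and 21.1 CPM, against 84.9 and 51.0 CPM, with 26.7 and 17.7 CPM in undried larvae, the level of late recovery. On scaffold 926 (36706 to 41713, 2 overlapping models) it was 0.688 and 0.935 CPM, against 6.48 and 6.85 CPM.

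**Figure D3:**
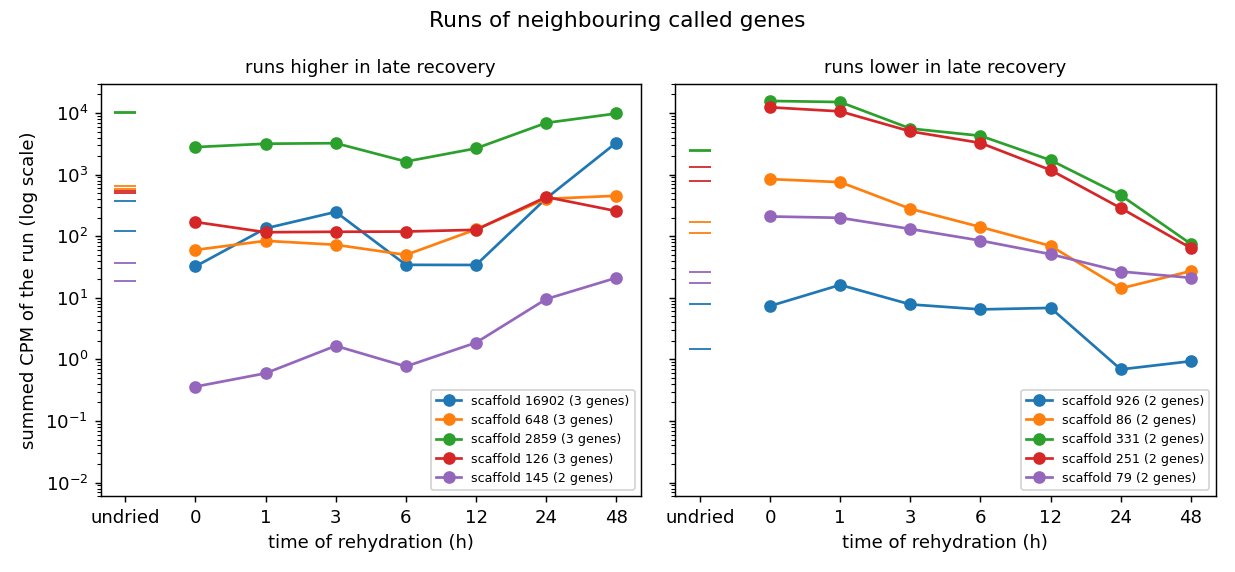
Summed CPM on a log scale (vertical axis) of the 5 longest rising runs (left) and 5 falling runs (right) is shown for the 2 undried libraries (dashes) and at each time of rehydration in hours (points, 1 library each). Each rising run is higher at 24 h than at 12 h, and scaffold 16902 ends at 3301 CPM; scaffolds 331 and 251 decline through the whole series to 74.8 and 64.1 CPM.

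Each later interval between neighbouring times separated its libraries by more genes than the one before. At a change of at least 2-fold and at least 5 CPM in the higher library, 777 genes were higher (4.52%) and 544 lower (3.16%) at 12 h than at 6 h. At 24 h 1201 were higher (6.99%) and 1242 lower (7.23%) than at 12 h, and at 48 h 1676 were higher (9.75%) and 1662 lower (9.67%) than at 24 h. The Pearson correlation of log2 CPM across tested genes was 0.930 between 6 and 12 h, 0.889 between 12 and 24 h and 0.855 between 24 and 48 h. Between the 2 undried replicates it was 0.899, lower than between 6 and 12 h. With no CPM limit, 2313 tested genes of each undried library lay at least 2-fold from the mean of both. The step counts thus include differences of the size seen between replicates, and their part was not tested. These steps rest on 1 library a time and have no test, and the intervals lengthen from 6 to 24 h. Total counts without scaling factors gave 1380 higher and 402 lower for the first step, and 834 higher and 2206 lower for the second. When the 24 h library was passed over, 1364 genes were higher (7.94%) and 1266 lower (7.37%) at 48 h than at 12 h, fewer than between 24 and 48 h, and the correlation was 0.874.

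**Figure D4:**
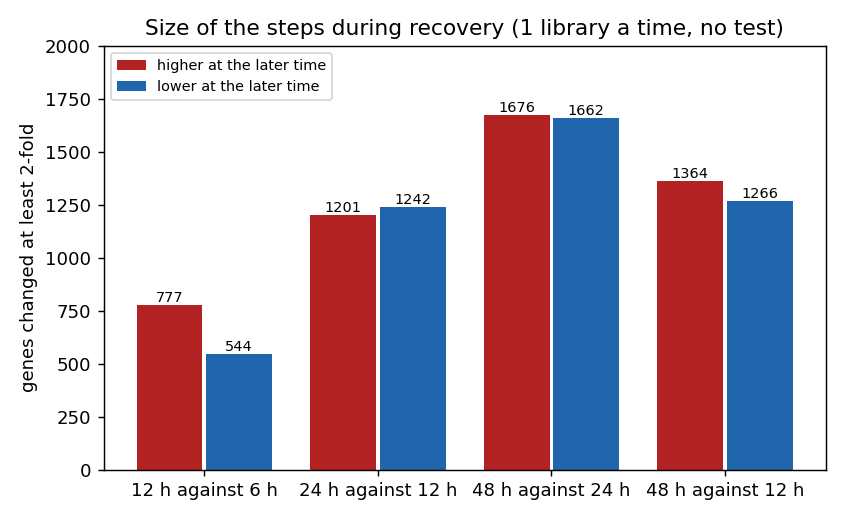
Bars give the number of genes (vertical axis) at least 2-fold higher or lower at the later time for neighbouring times of recovery and for 48 h against 12 h (horizontal axis), 1 library a time and with no test. Counts go from 777 and 544 for the first step to 1676 and 1662 for the last, and are 1364 and 1266 for 48 h against 12 h.

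Among the called genes the order was dominated by the interval between 12 and 24 h, which the comparison itself favours because that step separates the pooled pairs. Of the 354 rising genes, 43 had their largest upward step from 6 to 12 h, 279 (78.8%) from 12 to 24 h and 32 (9.04%) from 24 to 48 h. Of the 323 falling genes the largest downward step lay at 6 to 12 h in 56 (17.3%), at 12 to 24 h in 233 (72.1%) and at 24 to 48 h in 34 (10.5%). With the length trend removed the last interval held 92 of the rising and 58 of the falling genes.

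The classes were formed from the same libraries as the levels that follow, so a low level at 6 h in the first class of rising genes partly restates its choice. The 43 genes with the first step largest had a median log2 level of -3.78 at 6 h relative to undried larvae, -1.67 at 12 h, -0.28 at 24 h and 0.12 at 48 h. On scaffold 3255 (82369 to 84754), the longest run of this kind, 2 overlapping models summed to 0.938 CPM at 6 h, 5.83 CPM at 12 h, 23.8 CPM at 24 h and 43.6 CPM at 48 h. The 32 genes with the last step largest stood at -2.53, -2.23, -1.32 and 0.28 at these times, so that their median was still below the undried level at 24 h.

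Among falling genes, the 56 early ones had a median log2 level of 1.58 at 6 h relative to undried larvae, 0.38 at 12 h, -0.40 at 24 h and -0.60 at 48 h. Their run on scaffold 77887 (816839 to 824429, 2 overlapping models) peaked outside the dry state: it had 126 CPM in dry larvae, 711 CPM at 3 h, 537 CPM at 6 h, 223 CPM at 12 h, 123 CPM at 24 h and 90.4 CPM at 48 h. The 34 late ones stood at 1.69, 0.80, -0.03 and -1.78, so that their median was at the undried level at 24 h and below it at 48 h.

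**Figure D5:**
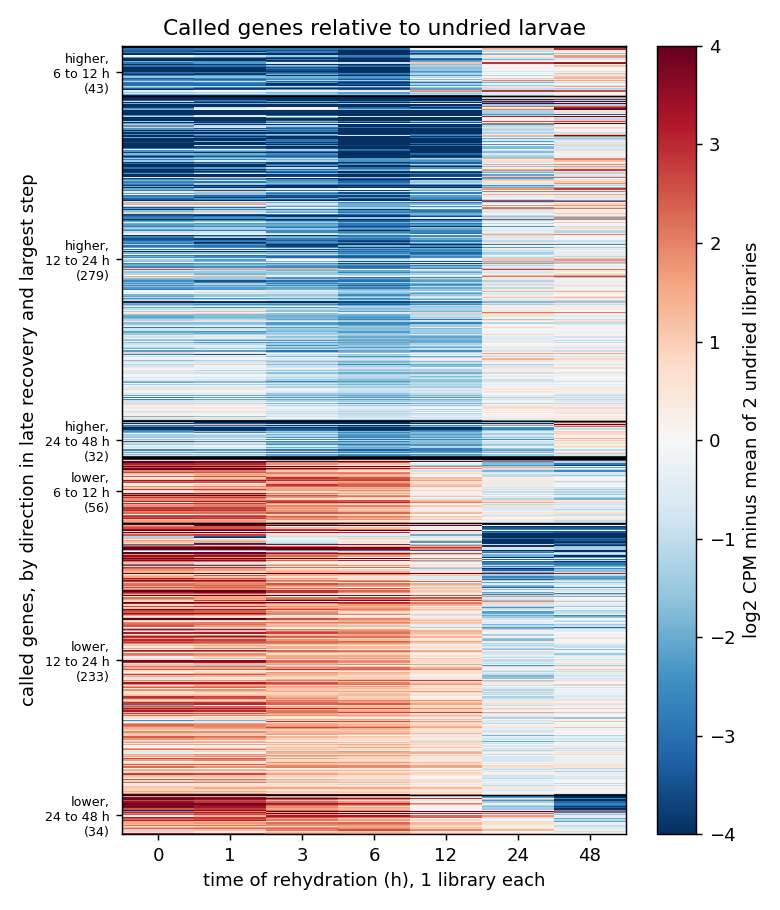
Each row is 1 of the 677 called genes, grouped by direction in late recovery and by the interval of the largest step (vertical axis), and colour gives log2 CPM minus the mean of the 2 undried libraries at each time of rehydration in hours (horizontal axis, 1 library each; values beyond 4 are drawn as 4). Rising genes are mostly blue to 12 h and pale at 24 and 48 h, and falling genes are mostly red to 6 h and pale or blue from 24 h.

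Most genes with a wide range over the 4 times were not called between the pooled pairs. A range of at least 4-fold, with at least 5 CPM at the highest time, was found in 2768 genes, of which 2333 (84.3%) were not called. The highest level was at 6 h in 897 of them, at 12 h in 143, at 24 h in 642 and at 48 h in 1086. Few genes thus peaked at 12 h. With the length trend removed 337 were highest at 24 h and 1239 at 48 h.

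Those highest at 6 h included the longest run, 13 consecutive models on scaffold 77936 (89550 to 123647, 34.1 kb). They summed to 11087 CPM at 6 h, 3694 CPM at 12 h, 2894 CPM at 24 h and 921 CPM at 48 h, with 45085 CPM in dry and 7726 and 11151 CPM in undried larvae. Of the 13 models 5 fell in late recovery and 8 did not pass, with log2 fold changes between -3.13 and -0.82. The sum was at the undried level at 6 h and below it from 12 h on. The most abundant model, at 101247 to 103123, had 669 and 250 CPM at 24 and 48 h, against 4270 and 1180 CPM at 6 and 12 h (edgeR quasi-likelihood test, Benjamini-Hochberg adjusted p = 0.0274).

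Runs highest at the other times were shorter. On scaffold 629 (309554 to 315461) 2 overlapping models on opposite strands summed to 0.569 CPM at 6 h, 26.7 CPM at 12 h, 9.04 CPM at 24 h and 8.3 CPM at 48 h, a pulse at 12 h of 2.63 times the undried mean. On scaffold 1289 (156701 to 160991) 4 models on the minus strand that do not overlap summed to 7.56, 35.3, 92.3 and 36.3 CPM at 6, 12, 24 and 48 h, with 72.6 and 112 CPM in undried larvae. On scaffold 2373 (44010 to 47644) 4 overlapping models summed to 6.80, 25.7, 72.2 and 163 CPM, with 77.3 and 67.6 CPM in undried larvae. None of the models of scaffolds 629 and 1289 was called, and 1 of 4 on scaffold 2373 rose.

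The commonest patterns with more than a single step turned at 24 h. A group of 669 genes (3.89%) changed less than 2-fold from 6 to 12 h, were at least 2-fold lower at 24 h and at least 2-fold higher again at 48 h. Relative to undried larvae their median log2 level was 0.24 at 12 h, -1.52 at 24 h and 0.32 at 48 h, and 95.4% of them were within 2-fold between 12 and 48 h. The reverse pattern, higher at 24 h alone, was seen in 310 genes (1.80%), with medians of 0.07, 1.57 and -0.13. Of these 310 genes 73.9% were within 2-fold between 12 and 48 h. Both steps of each pattern share the 24 h library. The 669 genes had a median exonic length of 3657 bases in 7 exon blocks, and the 310 genes 907 bases in 2, against 1423 bases in 3 over all tested genes. The part of the length trend of that library in these patterns was not tested.

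Patterns without a turn at 24 h also occurred. In 344 genes (2.00%) the level was at least 2-fold higher at 12 h than at 6 h, and no later step met the limits of 2-fold and 5 CPM. Their median log2 level relative to undried larvae was -1.20 at 6 h and 0.29, 0.57 and 0.43 at 12, 24 and 48 h. In 277 genes (1.61%) the level was at least 2-fold lower at 12 h with no later step by these limits, with 1.31 at 6 h and -0.01, -0.32 and -0.30 after. Changes below 5 CPM were not counted as steps, so these genes were not all steady. Between 12 and 48 h 81.4% of the 344 and 66.4% of the 277 genes were within 2-fold. At 12 h 58.4% of the 344 and 62.8% of the 277 genes were within 2-fold of undried larvae, against 62.5% of all tested genes. In 28 genes each of the 3 steps was upward by at least 2-fold, and in 22 each was downward.

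Part of the genes called in late recovery had moved the other way during drying, at shares above those over all tested genes. Called genes were more abundant than all tested genes, and the part of abundance in these shares was not tested. Drying was read from 24 h against 0 h and 40 h against 24 h of dehydration (2 libraries each), which share no library with late and middle recovery but share the fit. Of the 354 rising genes 54 (15.3%) had fallen at 24 h of drying, against 103 (0.599%) of all tested genes, and 1 had risen, against 113 (0.657%). Of the 103 genes, 54 (52.4%) rose in late recovery and 0 fell. Of the 323 falling genes 21 (6.5%) had risen at 24 h of drying and 0 had fallen.

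The later part of drying was shared mainly with the falling genes. Of the 323, 141 (43.7%) had risen at 40 h against 24 h of drying, against 874 (5.08%) of all tested genes, and 2 had fallen. Of the 354 rising genes 62 (17.5%) had fallen at 40 h, against 1487 (8.65%) of all tested genes, and 4 had risen. The median log2 level of those 1487 genes relative to undried larvae was -2.09 in dry larvae, -0.65 at 3 h, -0.40 at 6 h and -0.13 at 12 h. The 103 genes that had fallen at 24 h of drying stood at -3.00 in dry larvae, and at -2.97, -2.30, -1.07 and -0.62 at 6, 12, 24 and 48 h, and their distance from undried larvae is partly fixed by their choice against the same undried libraries. With 48 h alone as late recovery and the same drying calls, 54 of the 431 rising genes (12.5%) had fallen at 24 h of drying and 135 of the 523 falling genes (25.8%) had risen at 40 h. These counts moved when both comparisons were refitted without 1 library. The 141 falling genes became 1 without 6 h, 261 without 12 h, 178 without 24 h and 306 without 48 h. The 62 rising genes became 1, 178, 79 and 73 in that order, the 54 became 1, 67, 86 and 62, and the 21 became 1, 57, 95 and 32.

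The share within 2-fold of undried larvae in late recovery was somewhat higher for rising genes than for falling ones. The share of falling genes was near that of all tested genes. In late recovery 255 of the 354 rising genes (72.0%) were within 2-fold of undried larvae by their mean log2 level, against 50 (14.1%) in middle recovery. Another 49 were at least 2-fold above undried larvae in late recovery and 50 at least 2-fold below. Of the 323 falling genes 210 (65.0%) were within 2-fold in late recovery, against 168 (52.0%) in middle recovery, and 104 (32.2%) were at least 2-fold below. Over all tested genes 65.7% were within 2-fold in late recovery, against 60.8% in middle recovery. At 24 h alone 63.6% of the 354 and 61.0% of the 323 genes were within 2-fold, against 55.4% of all tested genes. At 48 h alone 70.9% and 65.6% of the same genes were, against 64.3%. The share of falling genes was lower in lists called anew. Those lists hold partly other genes and were chosen in part by their level at 48 h. With 48 h alone as late recovery, 70.3% of the genes called as rising and 48.8% of those called as falling were within 2-fold at 48 h. With the length trend removed these shares were 68.3% and 50.7%, against 64.3% of all tested genes at 48 h without that removal.

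As whole profiles, the libraries approached undried larvae unevenly. The Pearson correlation of log2 CPM with the undried mean across tested genes was 0.836 at 6 h, 0.871 at 12 h, 0.846 at 24 h and 0.877 at 48 h. That with dry larvae was 0.835, 0.796, 0.693 and 0.720. The number of tested genes at least 2-fold from the undried mean was 7712, 6454, 7658 and 6133, so the 24 h library lay further from undried larvae than either neighbour, and its length trend moves with this result.

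The called genes also differed in their models. The rising genes had a median exonic length of 938 bases and the falling ones 2510 bases, against 1423 bases over all tested genes. With 48 h alone as late recovery these medians were 1114 and 1572 bases, and with the length trend removed 1482 and 1174 bases, so the contrast in length was smaller without the 24 h library and ran the other way with the trend removed. Models with a single exon made up 11.6% of the rising and 11.1% of the falling genes, against 20.9% of all tested genes. Of the rising models 32.2% overlapped another and of the falling models 47.1%, against 42.0% over all tested genes. Called genes were also more abundant. Rising genes had a median of 68.7 CPM in late recovery, against 5.55 CPM over all tested genes. Falling genes had 60.4 CPM in middle recovery, against 4.91 CPM. These levels are partly fixed by the calls, since each list is given in the pair where it was higher. In the other pair, rising genes had 14.2 CPM in middle recovery and falling genes 20.1 CPM in late recovery. The part of abundance in the shares of single-exon and overlapping models was not tested.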

How the data were processed

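RNA of whole larvae was sequenced in 33 libraries. The authors deposited raw counts of reads per gene for 28415 genes, with TopHat2 named in the submitters' processing notes, and gene models on 6190 scaffolds (other: positions, counted from 1, as deposited), of which 36.2% overlap another. Aligner version, genome build, counting settings and strand use are not given in the sources used here. One gene model has no exon lines and was left out of length values.

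Samples were grouped by title. The fit held the 22 libraries of batch 1, with 24 and 48 h of rehydration pooled as one group, 6 and 12 h as another and each other time as its own, so replicated drying times added to the estimate of spread (9 residual degrees of freedom). The 17189 genes that reached 1 CPM in 2 or more libraries were tested with edgeR 4.0.16 (R 4.3.3) and TMM scaling. The quasi-likelihood F-test with robust dispersions was used, with Benjamini-Hochberg adjustment at 0.05. The test was also run on simulated counts. In these both times of a pooled pair had the same mean, so change within a pair was not covered. SE is the size of the log2 fold change over the root of F. CPM is TMM-scaled, log2 CPM has a prior count of 2, and floors use total counts and cover counting error only. Total counts lay between 15015674 and 34179203. Samples and lists were chosen with earlier results of these data known.

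IDs named are the 2 largest rises and 2 largest falls among called genes with a 2-fold or larger change, 5 CPM or more on average in the higher pair and no overlap between libraries. Regions are the 5 longest runs in each direction, the longest for each largest step (none of 2 genes was found at 24 to 48 h) and the longest for each time of highest level, with ties by mean log2 change. Alternatives were other scalings, filters, fits and samples, DESeq2 1.42.0, each of the 4 libraries left out and, chosen after seeing the data, removal of each library's trend with exonic length and 48 h against 12 h.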

Additional observations from a re-analysis of the deposited data

How the results depend on the processing

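The count of genes that rose (354) and fell (323) in late recovery depended on the fit. It was 863 and 832 with all genes holding a count, 921 and 751 with DESeq2, 785 and 1218 with a coefficient per time, 55 and 48 with all 33 libraries and a batch term, 555 and 758 with 32 (without the batch 2 library at 1 h of rehydration), 88 and 45 against a 1.5-fold change, and 0 and 0 with the 4 libraries alone by edgeR (1543 genes at an unadjusted p under 0.05). The fit of 4 libraries used fewer samples and the 1.5-fold test asked for a larger change by construction. The cause of the other differences was not tested. Both fits with a batch term hold a batch 2 library whose title reads 40 h of dehydration and whose duration label reads 48 h. With all 33 libraries 13 falling genes had risen at 40 h of drying, and with 32 it was 387. Without scaling factors 694 fell. Leaving out 1 of the 4 libraries gave 1 to 513 rises and 2 to 968 falls, lowest without 6 h. Total counts moved the median log2 difference of all genes to -0.27 between late and middle recovery, against -0.08 with TMM. No paired analysis was possible because all 4 libraries carry the replicate number 1.

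Steps moved with their own thresholds. At 1.5-fold the higher and lower counts were 1631 and 1530 for 12 h against 6 h, 2507 and 2182 for 24 h against 12 h, and 2569 and 2979 for 48 h against 24 h. At 4-fold they were 173 and 59, 269 and 312, and 551 and 363. With at least 1 CPM they were 1738 and 1290, 2330 and 2379, and 3176 and 2796, and with at least 20 CPM 313 and 304, 563 and 639, and 848 and 809. Total counts gave 1380 higher at 12 h and 2206 lower at 24 h, 97 rising and 13 falling genes with their largest step from 6 to 12 h, and 425 genes highest at 12 h. With the length trend removed 1057 genes were lower at 48 h than at 24 h, 92 rising and 58 falling genes had their last step largest, and 337 genes were highest at 24 h.

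Of 68 values of the named genes under alternatives 23 lost the call and 0 changed sign, and of 64 region values 4 moved by more than the spread between the late libraries and 0 changed sign. With 1 library a time, no step has an error of its own.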
